A study of Mus musculus with 12 samples.

Results

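The eosinophil lineage regulators described here are 10 genes, Gata1, Gata2, Cebpa, Cebpb, Cebpe, Spi1, Id1, Id2, Irf8, and Trib1, which were taken by gene symbol from the 36047 genes of the table. All 10 were found once each and passed the filter on low values, an average above 10 normalized counts, as did 15249 genes in all. RNA was sequenced from 3 subsets of small intestinal (SI) eosinophils, namely α4β7+ cells, α4β7− CD22− cells, and CD22+ cells, with 4 libraries per subset and 12 in all. The mice were wild-type female C57BL/6J animals per the labels, kept on standard chow and given no treatment, and their age is not given in the labels. Each library came from the proximal SI lamina propria of a pooled pair of mice, from live cells sorted as CD45+ CD11b+ SiglecF+ MHCII− Ly6G−, with 3 ng of RNA as input. The study takes the gut-homing integrin α4β7 as the mark of eosinophils that entered the tissue recently and the lectin CD22 as that of cells that have stayed longest, so the subsets stand for ages of residence only through these surface markers. Nothing in the labels says that libraries of a subset are more than separate samples, so p-values measure the spread between these samples. The question asked of the data was whether the regulators that establish the eosinophil lineage differ among eosinophils already in the tissue.

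Eosinophils arise in the bone marrow from granulocyte progenitors under the joint action of GATA, C/EBP, and ETS family transcription factors. GATA-1 is required for the lineage, C/EBPα opens the granulocyte program, C/EBPε carries late granule maturation, and PU.1, the product of Spi1, acts with both. ID proteins lack a DNA-binding region and hold E proteins away from DNA, IRF8 is best known for guiding monocytes and dendritic cells, and TRIB1 is a pseudokinase that brings C/EBPα to the ubiquitin ligase COP1 for degradation. Id1, Id2, and Trib1 therefore encode regulators that do not bind DNA themselves.

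The libraries summed to between 14286474 and 16915755 normalized counts, the unit in which the authors deposited the data, and the totals were higher in α4β7+ (15783607 to 16915755) than in CD22+ (14286474 to 14758267) libraries, without overlap. The value of 1 read was estimated from the lowest values, which gave a floor of 3 reads at 2.54 to 3.47 normalized counts per library, approximate and for counting error only. The lowest value of any of the 10 genes, 15.2 for Id1, lay above it. The sort matched the labels at the RNA level, since the log2 difference from α4β7+ to CD22+ was −4.12 for Itgb7, the integrin β7 chain, and 3.58 for Cd22. The eosinophil markers Siglecf, Ccr3, and Il5ra reached at least 6884, 10103, and 1648 normalized counts in every library. The granule genes Prg2 and Epx, also eosinophil markers, were much lower. Their means were 352 and 150 in α4β7+, 185 and 129 in α4β7− CD22−, and 110 and 68.9 in CD22+ eosinophils. The mast cell and basophil proteases Mcpt8 and Tpsb2 and the neutrophil elastase gene Elane were listed at 0 in all 12 libraries. Other markers of other cells were present, since the 7 neutrophil markers summed to 47.3 to 78.7 normalized counts in the α4β7+ libraries and to at most 33.3 in the CD22+ libraries, with Ltf the highest in mean in both, and the plasma cell gene Jchain ranged from 2305 to 7156 over all libraries. Their part in the results was not tested.

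Levels of different genes were compared per kilobase of the longest annotated transcript. In α4β7+ eosinophils the order ran from Cebpb, at 7258 ± 358 normalized counts per kilobase (SD, n = 4), through Spi1 (4420 ± 313), Cebpe (3356 ± 360), and Trib1 (2788 ± 285) to Id2 (713 ± 51.3), Gata1 (430 ± 42.5), and Gata2 (112 ± 10.6). Irf8 (66.6 ± 20.8), Id1 (44.8 ± 9.09), and Cebpa (27.2 ± 3.89) stood at the end. Cebpb, Spi1, Cebpe, and Trib1 each exceeded the level of at least 97.6% of the genes tested in every subset, whereas Irf8, Id1, and Cebpa exceeded at most 48.7%. The first 8 places held the same genes in all subsets. Neighbors whose library ranges overlapped were Cebpe with Trib1 in every subset, Id1 with Cebpa in every subset, Irf8 with Id1 in α4β7− CD22−, Irf8 with Cebpa in CD22+, and Cebpb with Spi1 in CD22+ eosinophils, where Cebpb had 4188 ± 382 and Spi1 4060 ± 343. With the mean length of a gene's transcripts in place of the longest, Spi1 stood above Cebpb in every subset.

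**Figure D1:**
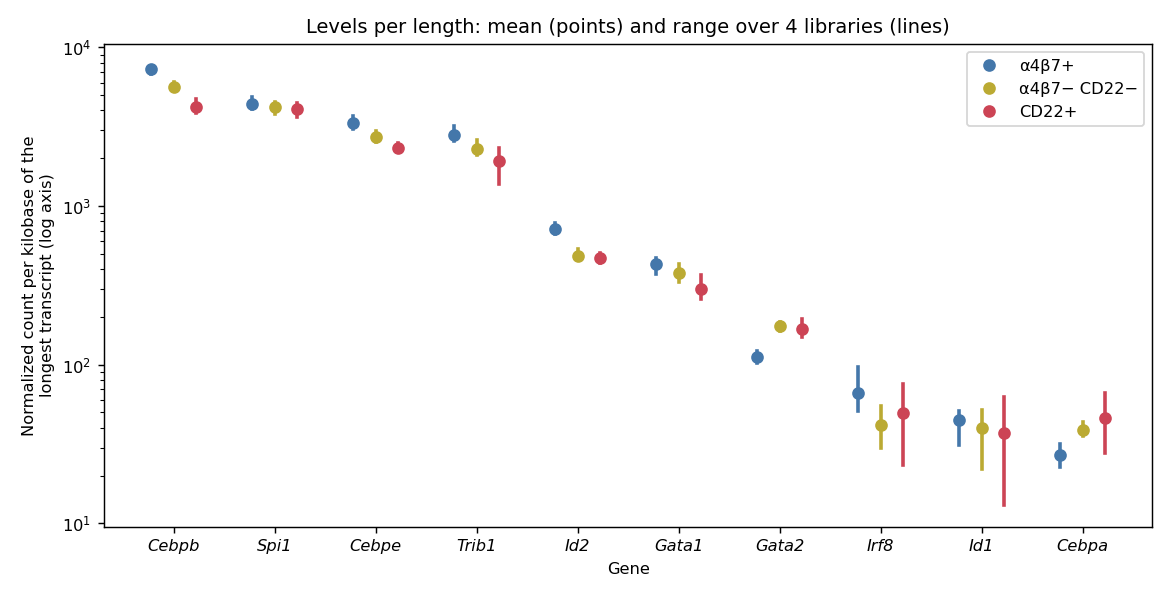
Levels per length of the 10 genes, with normalized counts per kilobase of the longest transcript on a log axis, the mean of each subset as a point, and the range over its 4 libraries as a line. Cebpb, Spi1, Cebpe, and Trib1 stood above 1000 in every library, and Irf8, Id1, and Cebpa stayed below 100.

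The subsets were compared with limma on log2(normalized count + 1), and a gene was called different at an adjusted p of at most 0.05 together with a fold change of at least 1.5, the thresholds of the study. Of the 10 genes, 1, Gata2, was called higher in α4β7− CD22− than in α4β7+ eosinophils and 0 lower, against 8.05% of all genes tested that were called in this comparison, 3.70% higher and 4.35% lower. Between CD22+ and α4β7+ eosinophils, Gata2 was called higher and Id2 and Cebpb lower, 3 of 10 against 12.0% of all genes, 5.60% higher and 6.39% lower. With limma, 0 of the 10 were called between CD22+ and α4β7− CD22− eosinophils, where 0.603% of all genes were (0.210% higher and 0.393% lower), although 3 of the 10 had an unadjusted p under 0.05, as did 9.67% of all genes. On the adjusted p alone, 4, 6, and 1 of the 10 passed in the 3 comparisons, against 14.9%, 21.1%, and 1.08% of all genes. With 10 genes, these shares rest on 1 to 6 genes each. The median log2 difference of the 10 genes was −0.25, −0.52, and −0.15 in the same order, while that of all genes tested was 0.0030, 0.014, and −0.0014, and 8 of the 10 estimates were negative in each comparison. The comparisons share libraries, so their counts are not independent of each other. The totals of the libraries differed, and rescaling them to an equal total, an alternative added after the data were seen, moved the median of all genes to 0.098, 0.17, and 0.062. The genes called higher and lower then numbered 820 and 504 in place of 564 and 664 in the first comparison, 1513 and 690 in place of 854 and 975 in the second, and 40 and 44 in place of 32 and 60 in the last. Of the 10 genes, Gata2 and Cebpa were then higher and Cebpb lower between CD22+ and α4β7+ eosinophils, and Id2 was no longer called. The negative estimates among the 10 genes then numbered 7, 7, and 5, and their medians were −0.16, −0.36, and −0.084.

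**Figure D2:**
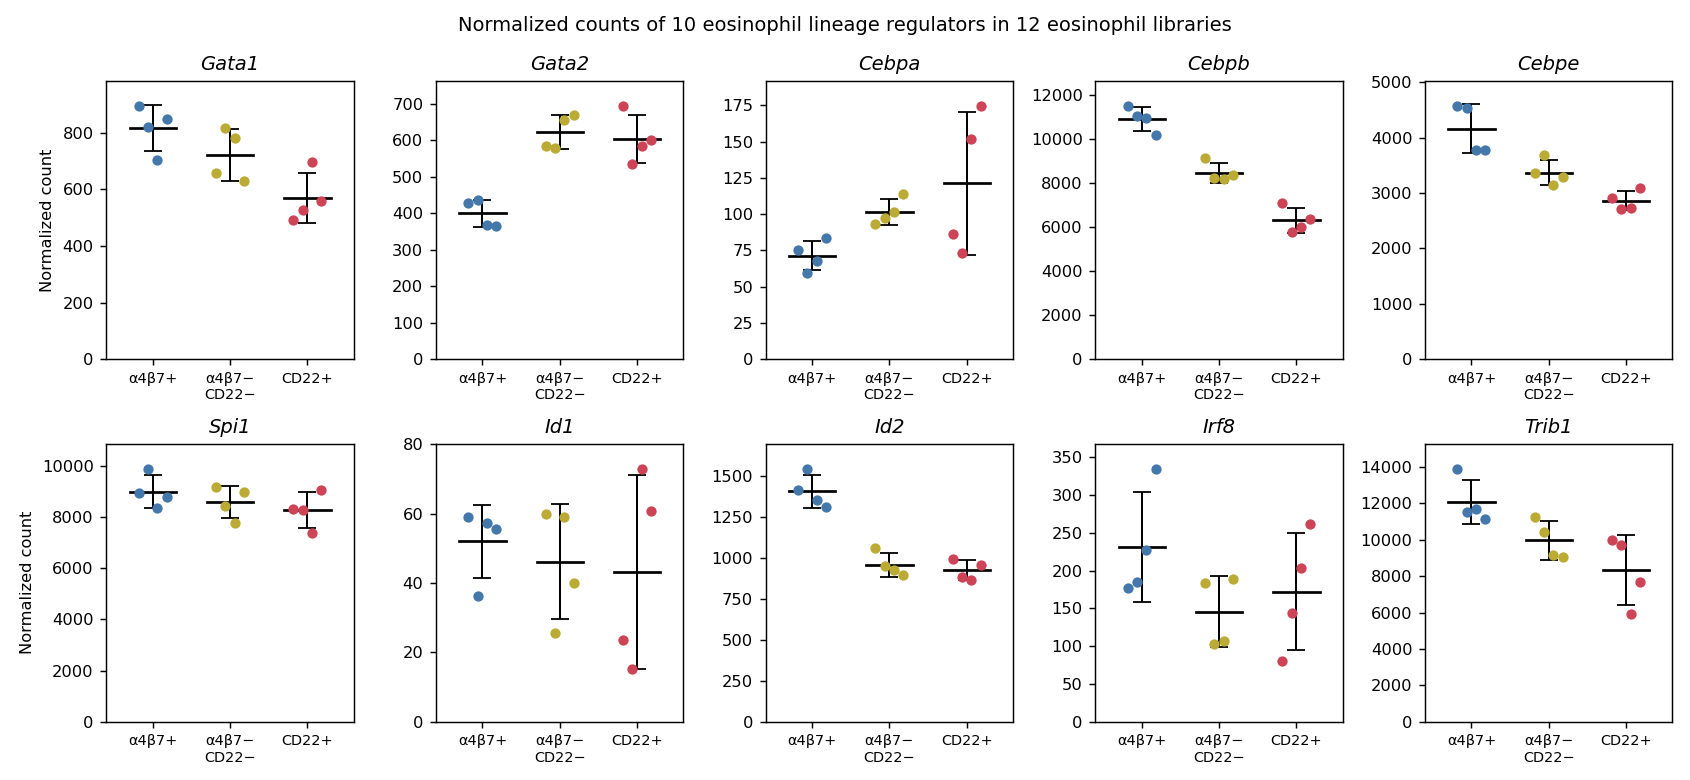
Normalized counts of the 10 genes in each library (points), with the mean (wide bar) and SD (error bar) of the 4 libraries of each subset, and a linear axis from 0 for each gene. Gata2 libraries of the α4β7+ subset lay at 366 to 436, below all others, and Id2 libraries of that subset lay at 1310 to 1542, above all others.

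The upstream sequences of the 3 genes called, and of Gata1 as the sister of Gata2, are shown as the DNA on which such factors can act. RefSeq promoter windows on GRCm38.p6 were matched for 6 of the 10 genes, and the 250 bases before each start were searched on both strands for 6 motifs, the GATA motif (AGATAA, also with T as its first base or G as its last), the C/EBP motif TTNNGCAA, the PU.1 core GAGGAA, the CCAAT box, the TATAAA box, and TGACG, the core of the cyclic AMP response element. The starts are those of RefSeq, and the windows of Gata1, Id2, and the second Gata2 start lie inside the spans annotated for these genes, not before them. Capitals mark the matches, each sequence runs 5′ to 3′ on the strand of its gene, and no 2 matches overlap.
Gata2, first start, chr6:88193641-88193890, plus strand: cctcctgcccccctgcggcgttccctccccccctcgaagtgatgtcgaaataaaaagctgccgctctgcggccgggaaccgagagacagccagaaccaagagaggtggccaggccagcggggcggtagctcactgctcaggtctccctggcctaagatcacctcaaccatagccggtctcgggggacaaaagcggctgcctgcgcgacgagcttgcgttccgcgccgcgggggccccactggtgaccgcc
Gata2, second start, chr6:88198414-88198663, plus strand: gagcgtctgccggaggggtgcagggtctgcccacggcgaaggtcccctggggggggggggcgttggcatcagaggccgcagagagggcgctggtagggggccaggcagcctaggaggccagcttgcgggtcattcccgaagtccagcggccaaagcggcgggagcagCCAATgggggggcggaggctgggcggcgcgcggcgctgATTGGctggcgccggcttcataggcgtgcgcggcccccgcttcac
Gata1, chrX:7967911-7968160, minus strand: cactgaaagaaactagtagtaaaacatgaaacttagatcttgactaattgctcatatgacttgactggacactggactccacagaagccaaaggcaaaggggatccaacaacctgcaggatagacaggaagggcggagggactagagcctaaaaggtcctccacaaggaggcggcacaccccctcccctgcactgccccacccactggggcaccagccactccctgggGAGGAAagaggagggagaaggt
Id2, chr12:25096093-25096342, minus strand: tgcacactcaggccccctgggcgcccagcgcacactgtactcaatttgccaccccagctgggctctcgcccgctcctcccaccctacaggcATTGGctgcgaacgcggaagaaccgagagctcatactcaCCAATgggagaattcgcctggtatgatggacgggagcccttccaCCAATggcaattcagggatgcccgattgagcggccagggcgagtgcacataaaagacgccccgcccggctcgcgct
Cebpb, chr2:167688665-167688914, plus strand: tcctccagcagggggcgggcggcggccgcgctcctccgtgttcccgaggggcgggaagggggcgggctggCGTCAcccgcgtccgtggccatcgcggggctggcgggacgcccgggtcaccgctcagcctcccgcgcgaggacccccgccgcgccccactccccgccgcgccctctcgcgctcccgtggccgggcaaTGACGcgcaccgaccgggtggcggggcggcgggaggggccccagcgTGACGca
The Id2 window held 3 CCAAT boxes and the second Gata2 window 2, while 33.9% of all 32851 windows of the same length held at least 1. Cebpb held 3 TGACG matches (17.8% of windows hold at least 1), and Gata1 held 1 GAGGAA (23.3%) close to this start. The first Gata2 window held none of the 6 motifs. Neither the GATA motif, found in 26.5% of all windows, nor TTNNGCAA, found in 9.56%, occurred in the windows printed, which says only that these letters are absent from these stretches.

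Gata2, a zinc finger factor of progenitors, mast cells, and basophils, was the gene whose RNA was higher in both other subsets than in α4β7+ eosinophils. It lies at chr6:88193891-88207032 on GRCm38. Gata2 read 428, 436, 367, and 366 normalized counts in the 4 α4β7+ libraries, then 584, 579, 656, and 668 in the α4β7− CD22− libraries, and finally 693, 535, 584, and 601 in the CD22+ libraries. All 8 libraries of the α4β7− CD22− and CD22+ subsets lay above all 4 α4β7+ libraries, while the α4β7− CD22− and CD22+ libraries overlapped. The means were 399 ± 37.7 for α4β7+, 622 ± 46.5 for α4β7− CD22−, and 603 ± 66.1 for CD22+ eosinophils (SD, n = 4 each). From α4β7+ to α4β7− CD22− the level rose 1.56-fold, a log2 difference of 0.64 (SE 0.107, adjusted p = 0.000832). From α4β7+ to CD22+ it rose 1.51-fold, or 0.59 on the log2 scale (SE 0.107, adjusted p = 0.000943). Between CD22+ and α4β7− CD22− the difference was −0.05, with a 95% interval from −0.28 to 0.18, and 0.015 with an equal total. The first of these calls held in all 12 models that left out 1 library. The second stood just above the fold threshold, and the estimate was below it at 0.58 with a pseudocount of 10, 0.56 with rescaling by the 75th percentile, 0.55 without α4β7+ replicate 3, 0.55 without α4β7+ replicate 4, and 0.52 without CD22+ replicate 1. In bulk libraries such as these, fewer cells that hold a transcript and less of it per cell cannot be told apart. Among 9 mast cell and basophil markers, only Kit averaged above the filter, and the other 8 together summed to no more than 21.5 normalized counts (at most 6.58 outside α4β7+ eosinophils and 4.34 within the CD22+ subset). Kit itself ranged from 53.3 to 99.3, from 84.4 to 161, and from 104 to 178 in the same order, so that its highest values, like those of Gata2, were not in α4β7+ eosinophils, and its part in the Gata2 result was not tested.

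Gata1, the GATA factor that the lineage requires, went the other way without being called. It lies at chrX:7959260-7978071, and its libraries read 894, 820, 705, and 849 normalized counts in the 4 α4β7+ libraries, then 657, 819, 783, and 632 in the α4β7− CD22− libraries, and finally 494, 527, 696, and 559 in the CD22+ libraries. Every CD22+ library lay below every α4β7+ library, and the α4β7− CD22− libraries overlapped both. The log2 difference from α4β7+ was −0.53 in CD22+ (SE 0.125, adjusted p = 0.0068), a 1.44-fold difference that passed the adjusted p and not the fold, and −0.18 in α4β7− CD22− eosinophils (adjusted p = 0.391). Without α4β7+ replicate 3 or CD22+ replicate 3, it passed both thresholds at −0.60 and −0.63.

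The ratio of Gata2 to Gata1 within a library does not depend on how the library was scaled, and this ratio and 3 others were examined after the values had been seen. There were 0.478, 0.531, 0.521, and 0.431 Gata2 counts per Gata1 count in the α4β7+ libraries, 0.890, 0.708, 0.838, and 1.06 in the α4β7− CD22− libraries, and 1.40, 1.01, 0.839, and 1.08 in the CD22+ libraries. The ratio was thus higher in every library of the other subsets than in any α4β7+ library. It differed from α4β7+ by 0.82 on the log2 scale in α4β7− CD22− and by 1.12 in CD22+ eosinophils, a 1.77-fold and a 2.18-fold difference (2-sided exact permutation test, p = 0.0286 for each, the smallest that 4 against 4 libraries allow, or 0.049 adjusted over 12 tests). The adjustment does not cover the choice of the ratios. Between CD22+ and α4β7− CD22− the difference was 0.30 (exact permutation p = 0.2). Libraries of these subsets deviated together by replicate number, and within numbers the ratio was higher in CD22+ in 4 of 4 pairs, for which an exact permutation test over the signs, added after the data were seen, gave p = 0.125, the smallest that 4 pairs allow. The same exact p held for the 3 other ratios, of which Cebpa/Cebpe was higher and the rest lower in 4 of 4 pairs. It also held for Gata1, Trib1, Cebpb, and Cebpe, each lower in 4 of 4 pairs as were 10.7% of all genes, and it came to 0.219 when adjusted over 14 such tests. These counts are not per length, so a ratio near 1 does not mean equal numbers of transcripts.

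**Figure D3:**
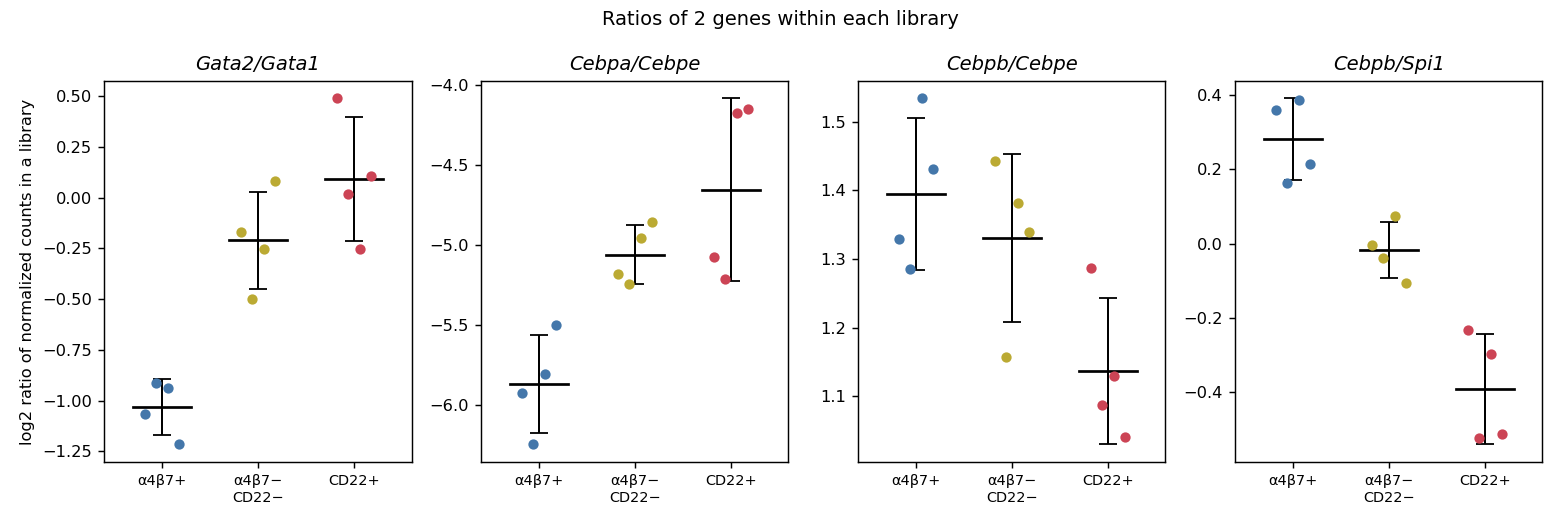
The log2 ratio of the normalized counts of 2 genes within each library (points), with the mean and SD of each subset as bars. The mean log2 Gata2/Gata1 ratio was −1.03 for α4β7+ libraries, −0.21 for α4β7− CD22−, and 0.09 for CD22+, and Cebpb/Spi1 was 0.28, −0.02, and −0.39.

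Cebpb, a C/EBP factor of stress granulopoiesis and of mature myeloid cells, had the largest of the called differences among the 10 genes, between CD22+ and α4β7+ eosinophils. It has a single exon at chr2:167688915-167690418. Cebpb read 11483, 11047, 10945, and 10187 normalized counts in the 4 α4β7+ libraries, then 9148, 8214, 8188, and 8342 in the α4β7− CD22− libraries, and finally 7081, 5766, 5992, and 6355 in the CD22+ libraries. The 3 subsets did not overlap in any pair, and the means were 10916 ± 539 for α4β7+, 8473 ± 455 for α4β7− CD22−, and 6298 ± 575 for CD22+ eosinophils (SD, n = 4 each). From α4β7+ to CD22+ the level fell 1.74-fold, a log2 difference of −0.80 (SE 0.0721, adjusted p = 1.44e-06), a call that held in all 12 models that left out 1 library. The difference was −0.37 from α4β7+ to α4β7− CD22− (adjusted p = 0.00301) and −0.43 from there to CD22+ (adjusted p = 0.00784), so that both steps passed the adjusted p and neither the fold. The second step missed the adjusted p with rescaling by the 75th percentile (adjusted p = 0.0706) and without the variance trend (adjusted p = 0.0817). Of the Cebpb transcript, 21.3% is shared in antisense with Tmem189, an overlapping gene on the other strand that averaged 730, 773, and 805 normalized counts in the 3 subsets, against 6298 or more for Cebpb. Whether the counting used strand is not given in the sources used here.

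Cebpe, the C/EBP factor of late granule maturation, followed the order of Cebpb with smaller differences. It lies at chr14:54710360-54712174 and read 4569, 4534, 3779, and 3778 normalized counts in the 4 α4β7+ libraries, then 3366, 3682, 3143, and 3297 in the α4β7− CD22− libraries, and finally 2903, 2714, 2738, and 3088 in the CD22+ libraries. The subsets again did not overlap in any pair. The log2 difference from α4β7+ was −0.30 in α4β7− CD22− (SE 0.0833, adjusted p = 0.0244) and −0.54 in CD22+ eosinophils (SE 0.0833, adjusted p = 0.000261), both short of 1.5-fold, and between CD22+ and α4β7− CD22− it was −0.24 (adjusted p = 0.292). The first of these missed the adjusted p with an equal total (0.0659), without the variance trend (0.0716), and without α4β7+ replicate 1 (0.0741) or 2 (0.0739) or α4β7− CD22− replicate 1 (0.0511), 3 (0.0725), or 4 (0.0614). The Cebpb/Cebpe ratio within a library ranged from 2.44 to 2.90 in α4β7+, from 2.23 to 2.72 in α4β7− CD22−, and from 2.06 to 2.44 in CD22+ libraries. Its log2 difference between CD22+ and α4β7+ eosinophils was −0.26 (2-sided exact permutation test, p = 0.0571, or 0.0762 adjusted over 12 tests), and the libraries overlapped.

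Cebpa, the C/EBP factor at the start of the granulocyte path and the one that TRIB1 removes, was the other gene with higher estimates outside α4β7+ eosinophils. Its single-exon gene lies at chr7:35119293-35121928. Cebpa read 75.2, 59.6, 67.3, and 83.3 normalized counts in the 4 α4β7+ libraries, then 92.8, 97, 101, and 114 in the α4β7− CD22− libraries, and finally 86, 73.2, 152, and 174 in the CD22+ libraries. All α4β7− CD22− libraries lay above all α4β7+ libraries, while CD22+ libraries were split, with replicates 1 and 2 near the α4β7+ values and replicates 3 and 4 at 152 and 174. The log2 difference from α4β7+ was 0.51 in α4β7− CD22− (SE 0.256, adjusted p = 0.225) and 0.67 in CD22+ eosinophils (SE 0.256, adjusted p = 0.0783), neither called. The CD22+ difference passed both thresholds at 0.67 with the replicate number as a block (adjusted p = 0.0493), at 0.88 without CD22+ replicate 2 (adjusted p = 0.0218), and at 0.83 with libraries rescaled to an equal total (adjusted p = 0.0289). It was called in only 1 of the 12 models that left out 1 library, among which it went down to 0.47, below the fold threshold. With rescaling by the 75th percentile it was 0.64 (adjusted p = 0.118). There were 0.0131 to 0.0221 Cebpa counts per Cebpe count in α4β7+, 0.0263 to 0.0345 in α4β7− CD22−, and 0.027 to 0.0564 in CD22+ libraries. This ratio differed from α4β7+ by 0.81 and 1.22 on the log2 scale in α4β7− CD22− and CD22+ eosinophils, without overlap (2-sided exact permutation test, p = 0.0286 for each, or 0.049 adjusted over 12 tests). The pair was chosen after the values of both genes were seen, and the adjustment does not cover that choice. Cebpa alone overlapped between CD22+ and α4β7+ libraries (2-sided exact permutation test, p = 0.0857, or 0.161 adjusted over 30 tests).

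Spi1 encodes PU.1, the ETS factor shared by all myeloid lineages, and was not called in any comparison. It lies at chr2:91082390-91115756 and read 8944, 9872, 8365, and 8780 normalized counts in the 4 α4β7+ libraries, then 9164, 8432, 7775, and 8977 in the α4β7− CD22− libraries, and finally 8314, 8285, 7367, and 9070 in the CD22+ libraries. The subsets overlapped throughout. The log2 difference between CD22+ and α4β7+ eosinophils was −0.12, with a 95% interval from −0.29 to 0.04, which excludes a 1.5-fold difference in either direction, and its sign turned with quantile normalization (0.048) and with an equal total (0.035). In the other comparisons, where the same scalings also turned its sign, it was −0.07 (−0.23 to 0.10) from α4β7+ to α4β7− CD22− and −0.06 (−0.22 to 0.11) from there to CD22+. Against Spi1 in the same library, Cebpb was lower in each successive subset, with ratios of 1.12 to 1.31, 0.929 to 1.05, and 0.696 to 0.852. None of the 3 ranges overlapped, and the log2 differences were −0.30 from α4β7+ to α4β7− CD22− and −0.37 from there to CD22+ (2-sided exact permutation test, p = 0.0286 for each, or 0.049 adjusted over 12 tests). This pair of genes was chosen after the values were seen, when Cebpb alone already showed no overlap, and the adjustment does not cover that choice.

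Id2, an ID protein also needed by innate lymphoid cells, was lower outside α4β7+ eosinophils to a like degree in both other subsets. It lies at chr12:25093799-25097140. Id2 read 1414, 1542, 1352, and 1310 normalized counts in the 4 α4β7+ libraries, then 1061, 948, 925, and 897 in the α4β7− CD22− libraries, and finally 995, 884, 864, and 955 in the CD22+ libraries. All 8 other libraries lay below all α4β7+ libraries, and the α4β7− CD22− and CD22+ libraries overlapped. The means were 1405 ± 101 for α4β7+, 958 ± 71.8 for α4β7− CD22−, and 924 ± 61.2 for CD22+ eosinophils (SD, n = 4 each). From α4β7+ to CD22+ the level fell 1.52-fold, a log2 difference of −0.60 (SE 0.0848, adjusted p = 0.000107). In α4β7− CD22− the difference was −0.55 (SE 0.0848, adjusted p = 0.00042), below the fold threshold, which it passed at −0.60 without α4β7− CD22− replicate 1. The CD22+ call was lost at −0.56, −0.58, and −0.57 without α4β7+ replicate 2, CD22+ replicate 2, or CD22+ replicate 3, at −0.56 with quantile normalization, and at −0.44 with an equal total (adjusted p = 0.00101). Between CD22+ and α4β7− CD22− the difference was −0.05, with a 95% interval from −0.23 to 0.13, and 0.013 with an equal total. Of the Id2 transcript, 19.2% is near-identical to Gm6175, whose reads the counting could have split with it. The summed T cell and innate lymphoid markers, of which 5 of 6 were in the table and all 5 above the filter, ranged from 839 to 1122 normalized counts in the α4β7+ libraries, from 562 to 789 in the α4β7− CD22− libraries, and from 758 to 1032 in the CD22+ libraries. The first 2 ranges did not overlap, as for Id2, while the CD22+ range overlapped both, no marker of the 5 was at 0, and their part in the Id2 result was not tested. The CD11b+ SiglecF+ gate would remove innate lymphoid cells, which the study defines as negative for CD11b.

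The pattern of Gata2 and Id2, with most of the difference between α4β7+ and the intermediate subset, was set against that of genes with even steps by comparing α4β7− CD22− with the mean of both ends. The difference was 0.34 for Gata2 (SE 0.0927, adjusted p = 0.0964) and −0.25 for Id2 (SE 0.0735, adjusted p = 0.125). None of the 10 genes was called, against 0.630% of all genes tested, and 2 of the 10, Gata2 and Id2, had an unadjusted p under 0.05, as did 12.5% of all genes. For Cebpb and Cebpe the same difference was 0.03 and −0.03.

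**Figure D4:**
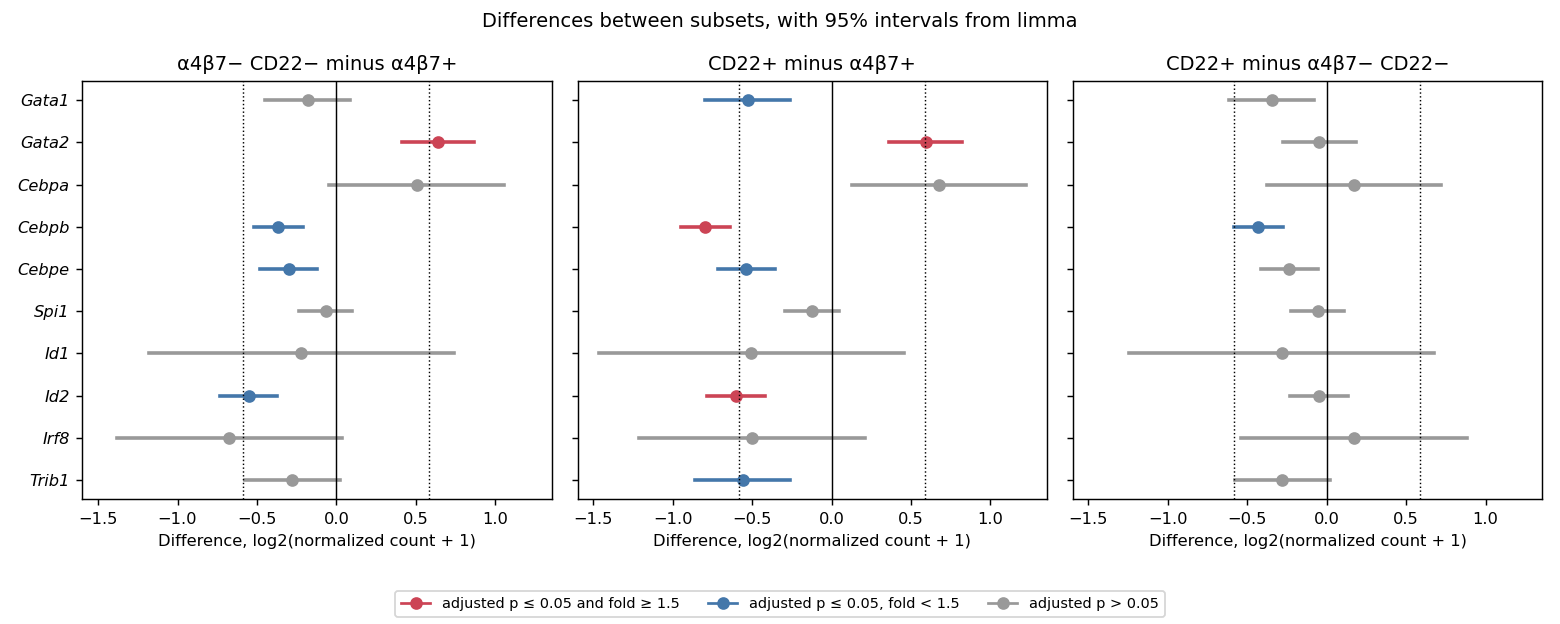
Log2 differences of the 10 genes in the 3 comparisons (points) with 95% intervals (lines), a solid line at 0, and dotted lines at a 1.5-fold difference. Red marks genes past both thresholds, blue those past the adjusted p alone, and gray the rest, and Gata2 lay to the right at 0.64 and 0.59 while Cebpb lay farthest to the left at −0.80 in CD22+ minus α4β7+.

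Trib1 had the highest mean of normalized counts of the 10 genes in each subset before length was taken into account, although Spi1 exceeded it in CD22+ replicates 3 and 4 and Cebpb in CD22+ replicate 3. It lies at chr15:59648350-59657099 and read 13889, 11529, 11709, and 11162 normalized counts in the 4 α4β7+ libraries, then 11239, 10406, 9154, and 9053 in the α4β7− CD22− libraries, and finally 9994, 9731, 5944, and 7695 in the CD22+ libraries. All CD22+ libraries lay below all α4β7+ libraries, and CD22+ replicate 3 was the lowest of all at 5944. CD22+ replicates 3 and 4, the lowest for Trib1, had the highest epithelial and macrophage marker sums of that subset, and the part of that RNA in the Trib1 values was not tested. The CD45+ SiglecF+ gate would remove such cells. The log2 difference from α4β7+ was −0.28 in α4β7− CD22− (SE 0.139, adjusted p = 0.22) and −0.56 in CD22+ eosinophils (SE 0.139, adjusted p = 0.00965), a 1.47-fold difference that was not called. It was −0.41 without CD22+ replicate 3 (adjusted p = 0.0179) and −0.53 without CD22+ replicate 4 (adjusted p = 0.028). It passed both thresholds at −0.59 with rescaling by the 75th percentile, and at −0.59, −0.66, and −0.64 without α4β7+ replicate 4, CD22+ replicate 1, or CD22+ replicate 2. With quantile normalization it was −0.33, and its adjusted p was then 0.0891.

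Irf8 and Id1 were low, varied widely within subsets, and were not called in any comparison. Irf8, at chr8:120736358-120756694, read 177, 185, 228, and 334 normalized counts in the 4 α4β7+ libraries, then 183, 103, 107, and 189 in the α4β7− CD22− libraries, and finally 80.7, 144, 203, and 262 in the CD22+ libraries. Id1, which unlike Id2 is known to hold back eosinophil differentiation, lies at chr2:152736251-152737410 and read 58.9, 36.3, 57.3, and 55.6 normalized counts in the 4 α4β7+ libraries, then 59.9, 25.5, 59.2, and 40 in the α4β7− CD22− libraries, and finally 23.6, 15.2, 72.8, and 60.7 in the CD22+ libraries. The SD came to 31.3%, 32.2%, and 45.2% of the mean for Irf8 and to 20.3%, 35.9%, and 65.0% for Id1, against at most 11.0% for Gata2. The subsets overlapped in every comparison. From α4β7+ to α4β7− CD22− the log2 difference of Irf8 was −0.67 (SE 0.332, adjusted p = 0.211), and that of Id1 was −0.22 (SE 0.449, adjusted p = 0.804). From α4β7+ to CD22+ the log2 difference was −0.50 for Irf8, with a 95% interval from −1.21 to 0.21, and −0.50 for Id1, from −1.46 to 0.45, so that a 1.5-fold difference in the lower direction was not excluded for either gene. Single libraries moved both values, that of Irf8 to −0.18 without CD22+ replicate 1 and −0.31 without α4β7+ replicate 4, and that of Id1 to −0.31, −0.11, and −0.84 without CD22+ replicate 1, 2, or 3. Irf8 lies within the span of Gm20388, a readthrough gene on the same strand that averaged 27.9, 39.0, and 95.8 normalized counts in the 3 subsets and shares no exon with it.

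RNA of markers of other cell types moved with these low genes within the CD22+ subset, although the CD45+ MHCII− gate would remove epithelial cells and MHCII+ dendritic cells. The SiglecF+ gate would also remove monocytes and macrophages, which the study defines as SiglecF−. In CD22+ replicates 1 to 4, Id1 read 23.6, 15.2, 72.8, and 60.7 while 7 epithelial markers summed to 878, 1392, 4981, and 3186 normalized counts. All 7 epithelial markers averaged above the filter, and their sum ranged from 2050 to 4661 in α4β7+, from 1328 to 2999 in α4β7− CD22−, and from 878 to 4981 in CD22+ libraries. The sum of 7 monocyte and macrophage markers was 1785, 2228, 2667, and 3249 in CD22+ replicates 1 to 4, where Cebpa read 86, 73.2, 152, and 174, and it ranged from 2478 to 2911 in α4β7+ and from 2061 to 2650 in α4β7− CD22− libraries. For Irf8, the sum of 7 dendritic cell markers was 3014, 4226, 4529, and 7823 in the CD22+ replicates, where Irf8 read 80.7, 144, 203, and 262, and it ranged from 2932 to 4989 in α4β7+ and from 3162 to 5711 in α4β7− CD22− libraries. None of these 21 markers was at 0 in a library. Outside CD22+ the library orders were not always shared. In α4β7+ replicates 1 to 4, epithelial sums of 2050, 2860, 4084, and 4661 stood with Id1 at 58.9, 36.3, 57.3, and 55.6. Dendritic sums there of 2932, 4989, 3744, and 4601 stood with Irf8 at 177, 185, 228, and 334. In α4β7− CD22− replicates 1 to 4, macrophage sums of 2061, 2190, 2214, and 2650 rose with Cebpa at 92.8, 97, 101, and 114. The part of this RNA in the levels of Id1, Cebpa, and Irf8 was not tested.

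**Figure D5:**
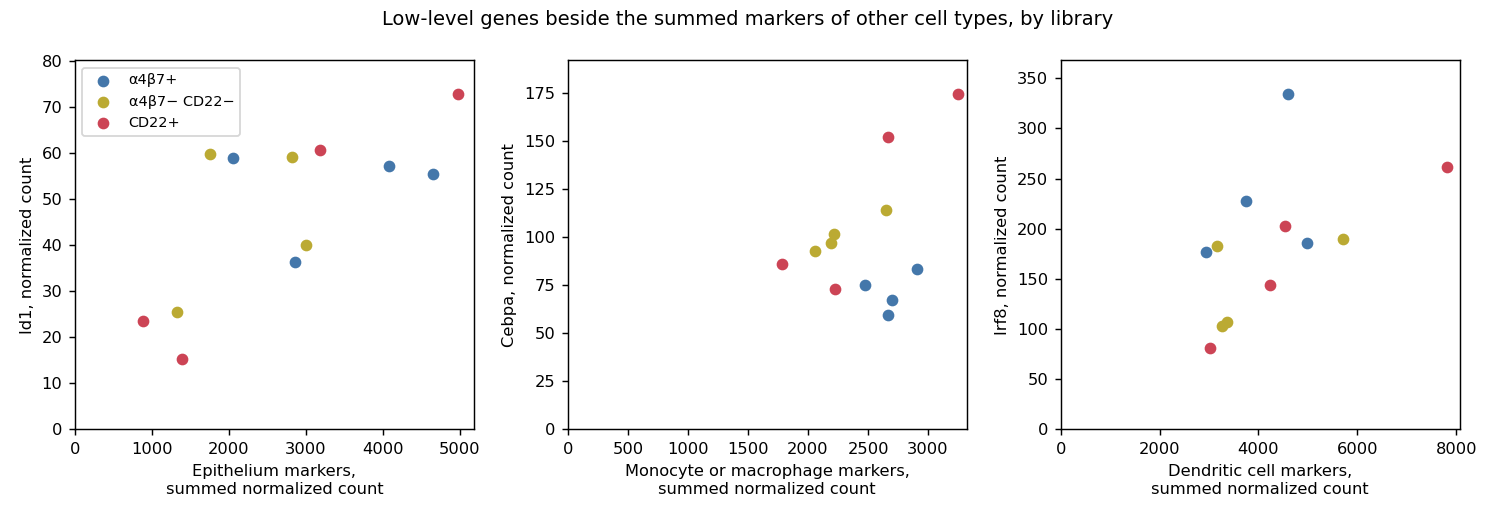
Normalized counts of Id1, Cebpa, and Irf8 in each library against the summed normalized counts of 7 epithelial, 7 monocyte and macrophage, and 7 dendritic cell markers, on linear axes from 0 and colored by subset. Among the 4 CD22+ libraries, replicates 3 and 4 had the higher marker sums and the higher levels of each gene, and α4β7+ libraries held 59.6 to 83.3 Cebpa counts at macrophage sums of 2478 to 2911.

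An exact permutation test of each gene in each of the 3 pairwise comparisons, 30 tests in all, gave the smallest p that 4 against 4 libraries allow, 0.0286, in 13 of them, or 0.0659 after adjustment. These are the comparisons without overlap, 5 of 10 genes between α4β7− CD22− and α4β7+ (18.8% of all genes tested), 6 between CD22+ and α4β7+ (22.9%), and 2 between CD22+ and α4β7− CD22− (6.37%). By direction they were 2 higher and 3 lower in the first (8.96% and 9.80% of all genes), 1 higher and 5 lower in the second (11.0% and 11.8%), and 0 higher and 2 lower in the last (2.66% and 3.72%), Cebpb and Cebpe.

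The other genes of these families and pathways were taken from 9 fixed lists, whose counts stand against 3.70% of all genes called higher and 4.35% lower in α4β7− CD22− than in α4β7+ eosinophils, and 5.60% and 6.39% in CD22+. Of 12 other GATA factors and partners tested, 1 was called lower in CD22+ than in α4β7+ eosinophils and none higher, with a median log2 difference of −0.02. This gene was Lmo4, a LIM domain protein of GATA complexes, which had means of 1492, 803, and 481 normalized counts and log2 differences of −0.89 (adjusted p = 6.96e-05) and −1.64 (adjusted p = 7.52e-08) from α4β7+, and of −0.75 between CD22+ and α4β7− CD22− (adjusted p = 0.0039). Its relative Lmo2 was called higher in α4β7− CD22− than in α4β7+ eosinophils, at 0.62 (adjusted p = 0.0387), and differed from α4β7+ by 0.44 in CD22+ (adjusted p = 0.115), a difference between subsets that was not called (−0.17, adjusted p = 0.872). Among 11 other C/EBP factors and leucine zipper partners, Batf3 was called, higher by 0.88 and 0.95 in α4β7− CD22− and CD22+ eosinophils (adjusted p = 0.00272 and 0.000889), and the median was 0.15 in CD22+.

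None of 14 other ETS factors, 4 other ID and E proteins, 8 other IRF genes, and 7 genes of the Tribbles and COP1 pathway was called in any comparison. Their median log2 differences between CD22+ and α4β7+ eosinophils were 0.03, 0.13, −0.21, and −0.01, against 0.01 for all genes. Cop1, the ligase that TRIB1 recruits and a gene chosen after its values were seen, differed by −0.07 (adjusted p = 0.691). Of 18 genes of the bone morphogenetic protein and transforming growth factor β pathway, which acts on Id1 and Id2, only the signal transducer Smad3 was called, lower by 1.17 and 1.29 on the log2 scale in α4β7− CD22− and CD22+ eosinophils (adjusted p = 0.000315 and 6.94e-05).

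Of 18 other granulocyte regulators tested, 4 were called lower in both other subsets than in α4β7+ eosinophils, and 1 higher in CD22+ eosinophils (4.35% and 6.39% of all genes were lower in the 2 comparisons, and 5.60% higher in CD22+). Myc, which drives cell growth, had at least 499 counts in every α4β7+ library and at most 71.6 in any other, a log2 difference of −3.99 in CD22+ eosinophils (adjusted p = 9.75e-08). In the same comparison Ikzf2, which encodes the zinc finger protein Helios, differed by −1.73 (adjusted p = 3.04e-06). Gfi1, a transcriptional repressor acting in granulocyte precursors, differed by −1.57 (adjusted p = 0.00313). The other two, named after their values were seen, were Meis1, lower by 0.76 in α4β7− CD22− (adjusted p = 2.71e-05) and called in CD22+ too, and Bcl6, higher by 0.66 in CD22+ (adjusted p = 0.0265). The list median was −0.26 in α4β7− CD22− and −0.30 in CD22+ eosinophils.

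Genes of the mature eosinophil formed the last list, and whether GATA-1 or C/EBP factors act on each was not examined. In CD22+ against α4β7+ eosinophils 5 of 8 were called lower, and 3 were in α4β7− CD22−, with none higher. The shares of all genes called lower were 6.39% and 4.35%. Between CD22+ and α4β7− CD22− eosinophils, 1 of the 8, Alox15, was called lower at −0.73 (adjusted p = 0.000235), against 0.393% of all genes. Prg2, which encodes major basic protein, differed between CD22+ and α4β7+ by −1.73 (adjusted p = 2.09e-05), Alox15, a lipoxygenase, by −1.46 (adjusted p = 7.37e-09), and Ccr3, the eotaxin receptor, by −1.22 (adjusted p = 4.45e-08). Epx and Il5ra, named after their values were seen, were the others, at −1.10 and −0.68. Siglecf (−0.04), Csf2rb (0.13), and Prg3 (−0.42), also named after their values were seen, were not called. The list median was −0.89. These genes were chosen with their values known, and the list is no independent sign of what the regulators do.

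The genes most like each regulator were named by the Pearson correlation of log2 values over the 12 libraries, which share their scaling and the order of the subsets, so the values describe likeness and nothing more, and 4 of these 20 genes, Ccpg1, Med22, Cyp4f18, and Cux1, were also among the 2 most like by Spearman's correlation. For Gata2 they were Srgap2 (r = 0.976) and Med22 (r = 0.954), and for Gata1 Ccpg1 (r = 0.938) and Ehhadh (r = 0.929). Cebpb was most like Lgals3 (r = 0.987), the galectin-3 gene, and Cyp4f18 (r = 0.985), Cebpe like Arpc4 (r = 0.983) and Copz1 (r = 0.974), and Id2 like Limd2 (r = 0.973) and Anxa5 (r = 0.971). Trib1 was most like Cux1 (r = 0.969) and Ube2d3 (r = 0.943), and Spi1 like Ppp4c (r = 0.934) and Ptges3 (r = 0.907). For the low genes they were, for Id1, Rtp3 (r = 0.935) and Epha1 (r = 0.914), for Irf8 Lratd2 (r = 0.911) and Anapc5 (r = 0.911), and for Cebpa Tspan3 (r = 0.884) and Uap1l1 (r = 0.876). Among the 10 genes themselves, Cebpb correlated most with Cebpe (r = 0.920), and Gata2 was most opposed to Id2 (r = −0.831).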

How the data were processed

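RNA was measured by paired-end sequencing in 12 libraries of 3 subsets, with 4 libraries each. Cells of 2 mice were sorted and pooled for each stranded library, and the authors, per the submitters' processing notes, used Trimmomatic 0.39, kallisto 0.46.1, DESeq2 1.38.2, and mm10. The deposited signal values are the authors' DESeq2 normalized counts. The values hold fractions, and the underlying reads were not recoverable (38.1% to 69.0% of low values lay within 5% of a whole read), so count tests were not used.

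After a filter at an average of 10, limma (version 3.58.1, run in R 4.3.3) was applied to log2(normalized count + 1), with the 3 subsets and a variance trend in the model, which was tested on simulated data first. Adding 1 understates the change of low genes. Adjustment was Benjamini-Hochberg within each comparison over 15249 genes. Single values were compared by exact permutation tests in SciPy 1.17.1. Identifiers were matched to GENCODE M21 (35968 of 36047), and shared transcript sequence was found with BLAST 2.17.0 at 90% identity over at least 100 bases. Lowest and highest correlations between libraries were 0.921 and 0.966, and no 2 held identical values. Libraries with the same number deviated together between α4β7− CD22− and CD22+ (all 4 pairs above 0.1, from 0.135 to 0.203) and not in all pairs elsewhere. The sources used here do not say whether numbers mark shared mice.

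The genes named are the 10 members, up to 3 genes with the largest change among those called in each list in the comparisons with α4β7+ (others are marked as named later), and the 2 genes most like each member. Markers of other cell types were summed. The members and lists were chosen with earlier results of these data known. Alternatives were other pseudocounts, filters, scalings, models, and thresholds, and each library left out in turn.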

Additional observations from a re-analysis of the deposited data

Results flagged for a closer look

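In 30 groups of 4 libraries, 1 for each gene and subset, 2 had a library far from the others, its gap to the nearest library taking a larger share of the whole range (0.840 and 0.852) than Dixon's critical value for 4 samples, and chance alone marks about 1 group in 20. Cebpb in α4β7− CD22− replicate 1 read 9148 normalized counts, where the next highest library of that subset read 8342. Id1 in α4β7+ replicate 2 read 36.3, where the next lowest read 55.6.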

How the results depend on the processing

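On the adjusted p alone, without the fold threshold, 4, 6, and 1 of the 10 genes passed in α4β7− CD22− minus α4β7+, CD22+ minus α4β7+, and CD22+ minus α4β7− CD22−, in place of 1, 3, and 0, and 2265, 3223, and 164 genes of all tested in place of 1228, 1829, and 92. For α4β7− CD22− minus the mean of both ends it was 187 in place of 96. Without the variance trend, 54 genes were called between CD22+ and α4β7− CD22−. With 1 library left out, 1 to 2 of the 10 genes were called in the first comparison, with Id2 added without α4β7− CD22− replicate 1, and 56 to 101 genes of all tested against the mean of both ends, the lowest without that library. By the mean transcript length, 6 of the 10 genes kept their place in the order of levels in α4β7− CD22− eosinophils. Rescaling to an equal total, added after the data were seen, removed the Id2 call and added Cebpa between CD22+ and α4β7+.

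Signs turned only for differences that were not called. Spi1 turned with quantile normalization (0.010, 0.048, and 0.038 in the 3 pairwise comparisons) and with an equal total (0.029, 0.035, and 0.0061), and between CD22+ and α4β7− CD22− an equal total also turned Gata2 (0.015) and Id2 (0.013). With 1 library left out, the difference between these subsets ranged from −0.12 to 0.0080 for Gata2, from −0.034 to 0.38 for Cebpa, from −0.072 to 0.49 for Irf8, and from −0.62 to 0.11 for Id1, and Id1 ranged from −0.38 to 0.030 between α4β7− CD22− and α4β7+. Blocking on the replicate number gave 1254, 1843, 100, and 109 called genes in the 4 comparisons, 1181, 1766, 88, and 87 of them also without it, and the block added Cebpa to the calls between CD22+ and α4β7+ and changed no other call of the 10 genes. The pairing by number passed the correlation rule only between CD22+ and α4β7− CD22−. Libraries correlated best with their own number in 10 of 12 pairs, the exceptions being replicates 3 and 4 between α4β7+ and CD22+, a hint from the data and not from the design. The exact tests gave 13 of 30 at the smallest p after rescaling by the 75th percentile too. Values near the fold threshold, as for Gata2, Id2, Gata1, and Trib1, are limited by 4 libraries per subset.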
